A study of Mus musculus with 3 samples.

Results

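The Cd209 family of the mouse is a cluster of genes for C-type lectins, the cell-surface receptors related to human DC-SIGN. The genes described here are Cd209a, Cd209b, Cd209d, Cd209e, Cd209f and Cd209g, which are 6 of the 32285 gene rows of the count tables. They were chosen by name, with their measured levels in dendritic and macrophage subsets in view, so these levels and the differences between libraries are given as descriptions, with no test. A seventh row, Cd209c, is no member. The study sorted live, nucleated CD45+ leukocytes from digested whole aortas, adventitia included, and made 1 single-cell library (10x Chromium 3′ v3) for each of 3 groups. All 3 groups, controls included, are labelled as ApoE-/- mice on C57BL/6J, a genotype prone to hyperlipidaemia and atherosclerosis. The control group had no treatment named, the HHcy group drank water with homocysteine at 1.8 g/L for 4 weeks, a model of hyperhomocysteinaemia, and the WD group ate a western diet for 4 weeks. Age, sex and the number of mice behind a library are not given in the labels. With 1 library a group, a difference between libraries cannot be told apart from a difference between mice, digests or sorts.

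C-type lectins of this family bind mannose- and fucose-bearing glycans through a calcium-dependent carbohydrate recognition domain and serve in the uptake of microbes and in cell adhesion. Cd209a encodes SIGNR5 (CIRE), known from dendritic cells and used as a label for monocyte-derived dendritic cells. Cd209b encodes SIGNR1, known from marginal zone macrophages of the spleen and medullary macrophages of lymph nodes, where it captures polysaccharides. Cd209d encodes SIGNR3, Cd209e SIGNR4, Cd209f SIGNR8 and Cd209g SIGNR7.

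The genes lie side by side on chromosome 8 (GRCm38, GENCODE positions). From Cd209a at chr8:3743397-3748984 to Cd209g at chr8:4134098-4137707 the cluster spans 394 kb, in the order Cd209a, Cd209e, Cd209d, Cd209b, Cd209c, Cd209f and Cd209g. Cd209g lies on the plus strand and the other genes on the minus strand, with 28.3 kb between Cd209f and Cd209g. All 6 members have a promoter in RefSeq (GRCm38.p6). The starts used below are RefSeq's, which are not always those of the GENCODE positions above. The stretch shown for Cd209g lies inside its GENCODE gene, and those for Cd209f and Cd209b overlap theirs in part. The 250 bases before the start of Cd209f and of Cd209g are shown first, because these genes were found in the same cells, and the capitals mark the run of 154 bases that both hold without a difference.
Cd209f, chr8:4105765-4106014, minus strand: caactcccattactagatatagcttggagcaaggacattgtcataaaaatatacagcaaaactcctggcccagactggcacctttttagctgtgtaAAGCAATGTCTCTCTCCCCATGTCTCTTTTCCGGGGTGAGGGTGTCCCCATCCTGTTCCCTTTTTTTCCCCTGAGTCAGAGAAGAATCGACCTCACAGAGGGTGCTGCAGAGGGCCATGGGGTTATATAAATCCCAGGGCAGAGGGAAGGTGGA
Cd209g, chr8:4134486-4134735, plus strand: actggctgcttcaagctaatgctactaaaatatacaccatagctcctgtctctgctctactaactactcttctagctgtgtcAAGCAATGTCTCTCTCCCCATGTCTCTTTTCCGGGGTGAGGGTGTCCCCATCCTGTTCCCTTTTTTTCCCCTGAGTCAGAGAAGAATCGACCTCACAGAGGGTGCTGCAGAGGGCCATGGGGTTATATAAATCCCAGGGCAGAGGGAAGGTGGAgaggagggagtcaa
The shared run ends 0 bases before the RefSeq start of Cd209f and 14 bases before that of Cd209g. Aligned end to end, both stretches were identical at 77.7% of 269 columns. The other 20 pairs among the 7 Cd209 genes were identical at 37.3% to 51.1%, with longest shared runs of 7 to 12 bases. The promoters of Cd209a and Cd209b are shown for comparison, since these genes had other patterns over the subsets, with capitals marking TTCCGG.
Cd209a, chr8:3748985-3749234, minus strand: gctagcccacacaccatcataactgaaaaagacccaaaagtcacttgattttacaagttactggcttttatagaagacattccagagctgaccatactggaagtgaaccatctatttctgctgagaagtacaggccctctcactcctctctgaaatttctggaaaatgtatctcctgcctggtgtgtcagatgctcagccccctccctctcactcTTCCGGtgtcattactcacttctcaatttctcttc
Cd209b, chr8:3926842-3927091, minus strand: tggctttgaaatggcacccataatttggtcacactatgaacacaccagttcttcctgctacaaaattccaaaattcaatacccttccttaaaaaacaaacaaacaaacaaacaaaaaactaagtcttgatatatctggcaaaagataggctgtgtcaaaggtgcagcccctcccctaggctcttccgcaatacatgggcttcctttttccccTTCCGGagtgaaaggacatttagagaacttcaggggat
The 3 short motifs named next, picked after reading the sequences, were searched on both strands. TTCCGG occurred in 5 of the 6 members, all but Cd209d, and in 12.03% of 32851 RefSeq promoters of this length. TGAGTCA occurred in Cd209f and Cd209g alone among the 7 genes and in 4.46% of promoters. TATAAA occurred in Cd209f and Cd209g, within the shared run, in Cd209a, and in 12.4% of promoters. A match describes letters, not binding. In the last 500 bases of the transcripts, where a 3′ library counts, 0 of 451 windows of 50 bases were shared between any Cd209 genes.

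Of 7512, 9753 and 8557 barcodes in the control, HHcy and WD libraries, 5400, 6439 and 5393 cells were used, and Ptprc, the gene of CD45, was detected in 93.4%, 93.5% and 90.9% of them. The HHcy library went against its genotype label. Apoe gave 39368 unique molecular identifiers (UMIs, counted molecules) there, or 374 CPM (a gene's UMIs scaled to the same total in every library and cluster), against 16.3 CPM in control and 19.3 CPM in WD. It is therefore called the library labelled HHcy, and for its main values the text also gives those without cells of 10 or more Apoe UMIs (Apoe-high cells). Barcodes holding markers of 2 lineages were left out as doublets, which removed 10.6%, 21.0% and 19.6% of the cells that passed quality limits. Of all Cd209f UMIs, 30.8% (control), 64.1% (labelled HHcy) and 41.6% (WD) lay in barcodes left out as doublets, and of all Cd209d UMIs 18.6%, 56.4% and 31.2%. Over all barcodes, Cd209f had 897, 4370 and 2751 UMIs and Cd209a 3510, 3184 and 3980. Pairs of libraries shared 20 to 24 barcodes. Where values come without names, they stand for control, labelled HHcy and WD in that order. All intervals given are exact 95% intervals for counting error only.

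Cells that should lack the family gave the background for every member. In the 7169 B cell-like cells the members ranged from 0.05 CPM (Cd209e) to 2.40 CPM (Cd209f), and 1.80% of these cells, at a median of 6630 UMIs, held a Cd209f UMI. T cell-like cells ranged from 0 to 7.78 CPM, where 1 WD cell held 15 of the 21 Cd209a UMIs, and neutrophil-like cells from 0.33 to 10.4 CPM.

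Across the myeloid cells, the family split over 2 places. Clusters were formed with all Cd209 genes left out and named from markers that hold no Cd209 gene. In summed values, fewer cells with a transcript and less transcript per cell cannot be told apart, so shares of cells are given too. Cd209a lay in the cDC2-like cluster (conventional or monocyte-derived dendritic cells), with 73.1% of its 7084 UMIs in used cells. Cd209f, Cd209g and Cd209d lay in a resident macrophage-like cluster led by Lyve1, a hyaluronan receptor that marks macrophages of the vessel wall, with 61.8%, 55.7% and 46.1% of their UMIs. That cluster held 3.42% of used cells and the cDC2-like cluster 3.30%. Cd209b was divided between the Lyve1-led cluster (29.3%) and an interferon macrophage-like cluster (41.1%). In the latter, 496 UMIs lay in 3 cells of the library labelled HHcy, so that share does not describe the cluster as a whole. The sparse Cd209e was divided between cDC2-like (48.2%) and Lyve1-led cells (25.3%).

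**Figure D1:**
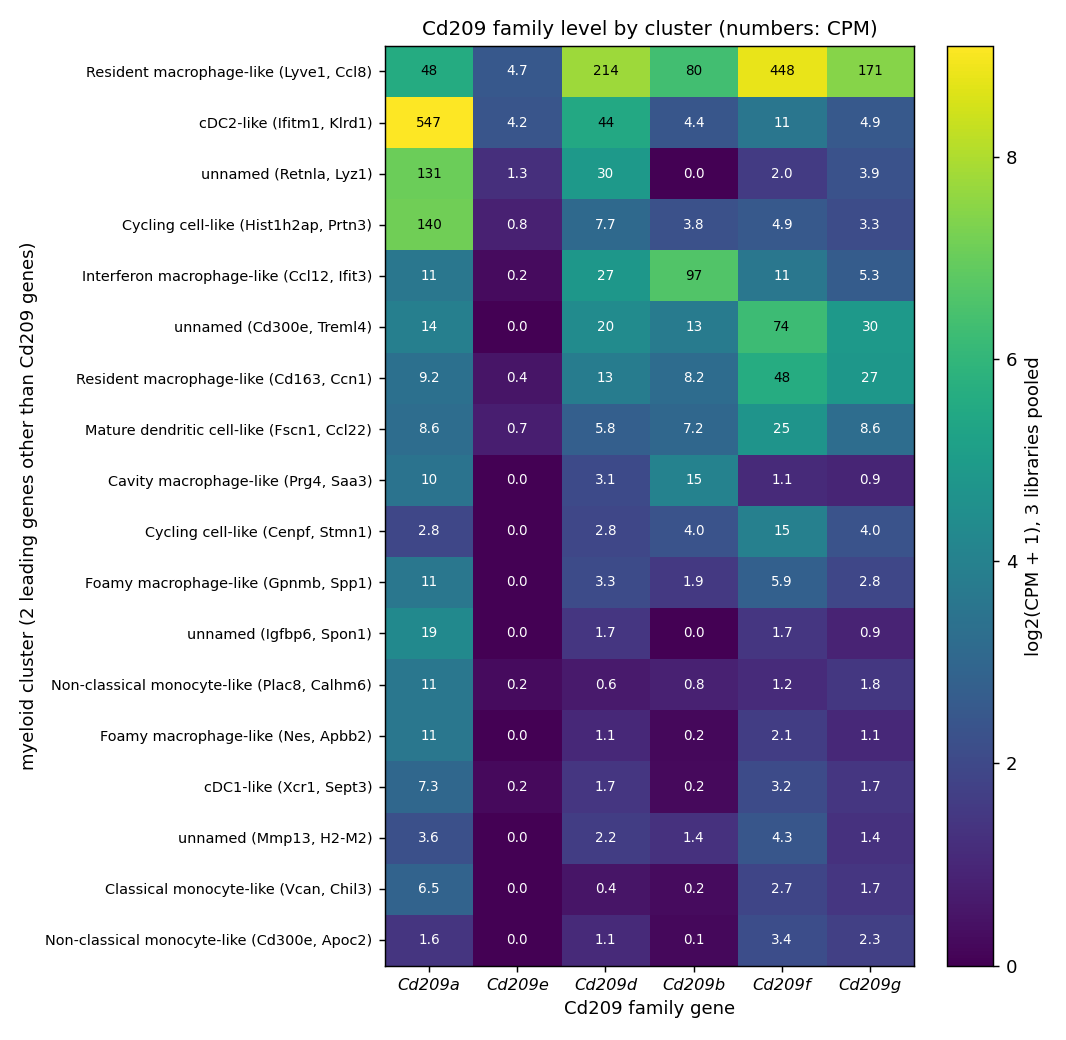
Level of each Cd209 gene (columns) in each myeloid cluster of at least 50 cells (rows), all 3 libraries summed. Numbers are CPM and colour is log2(CPM + 1). Cd209a stands at 547 CPM in the cDC2-like cluster, and Cd209f at 448 CPM and Cd209d at 214 CPM in the Lyve1-led cluster.

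Ordered by level over the summed libraries, Cd209a stood at 547 CPM (532 to 562) in cDC2-like cells, then at 140.1 CPM in a cycling cluster and 131 CPM in an unnamed cluster led by Retnla and Lyz1. The intervals of the last 2 overlapped. Cd209f had 4 levels whose intervals did not overlap: 448 CPM (428 to 468) in the Lyve1-led cluster, 74.0 CPM in an unnamed cluster led by Cd300e and Treml4, 48.1 CPM in the other resident macrophage-like cluster and 25.4 CPM in mature dendritic cell-like cells. Cd209g followed the same order for its first 3, at 171, 29.7 and 27.1 CPM, the last 2 overlapping. Cd209d went from 214 CPM in the Lyve1-led cluster to 43.7 CPM in cDC2-like cells and 29.6 CPM in the Retnla and Lyz1 cluster, the last 2 overlapping. The order for Cd209b, 97.2 CPM in the interferon cluster and 80.4 CPM in the Lyve1-led cluster, overlapped, and the first of these rests on 4 cells of 1 library, described further on. So did that of Cd209e, 4.75 CPM in Lyve1-led and 4.22 CPM in cDC2-like cells. A cluster led by B cell genes, with a median of 1519.5 UMIs, is left out of these orders. Within each library, over clusters with at least 50 cells there, Cd209a was highest in cDC2-like cells and Cd209b, Cd209d, Cd209f and Cd209g in the Lyve1-led cluster. Cd209e was highest in cDC2-like cells in control and in the Lyve1-led cluster in both other libraries. The limit of 50 cells leaves out the interferon cluster of the library labelled HHcy (38 cells), where Cd209b stood at 1157 CPM.

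The Lyve1-led cluster held 174 control, 179 labelled HHcy and 237 WD cells, with median totals of 5119.5, 6838 and 8221 UMIs, and Lyve1 was detected in 91.5% of its cells. Its leading genes were Cd209f itself, Lyve1, Ccl8 and Folr2. Cd209f (SIGNR8) gave 303 UMIs (297 CPM, 264 to 332) in control. The library labelled HHcy gave 871 UMIs of it (663 CPM, 619.9 to 709), and WD gave 808 UMIs (386 CPM, 360.2 to 414). Cd209f thus stood highest in the library labelled HHcy, and no 2 of the 3 intervals overlapped. The share of cells with a Cd209f UMI was 34.5% in control, 40.1% in WD and 52.0% in the library labelled HHcy. With every cell thinned to 1000 UMIs, which sets depth equal, these shares were 17.4% in control, 19.4% in WD and 32.4% in the library labelled HHcy.

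Cd209g (SIGNR7), the neighbour of Cd209f, had the same order of libraries, at 118 CPM in control (121 UMIs), 235 CPM in the library labelled HHcy (309 UMIs) and 157 CPM in WD (328 UMIs). Its intervals of 98.3 to 142 in control and 140.3 to 175 in WD overlapped. Cd209d (SIGNR3) stood at 154 CPM in control (157 UMIs), 334 CPM in the library labelled HHcy (439 UMIs) and 168 CPM in WD (351 UMIs), so control and WD lay together (131 to 179.8 and 151 to 186). Cd209b (SIGNR1) stood at 36.2 CPM in control (37 UMIs, 25.5 to 49.9), 112 CPM in the library labelled HHcy (147 UMIs, 94.6 to 132) and 82.3 CPM in WD (172 UMIs, 70.4 to 95.5). Control was thus the low library for Cd209b, and the other two overlapped. A single WD cell held 36 of the 172 Cd209b UMIs.

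Cd209a (SIGNR5), the dendritic cell member, was also counted in the Lyve1-led cluster, at 33.3 CPM in control (34 UMIs), 70.8 CPM in the library labelled HHcy (93 UMIs) and 40.6 CPM in WD (85 UMIs). It stood above the 1.69 CPM of the B cell-like cells in each library. Cd209e (SIGNR4) had 2, 7 and 12 UMIs there, too few to order the libraries.

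**Figure D2:**
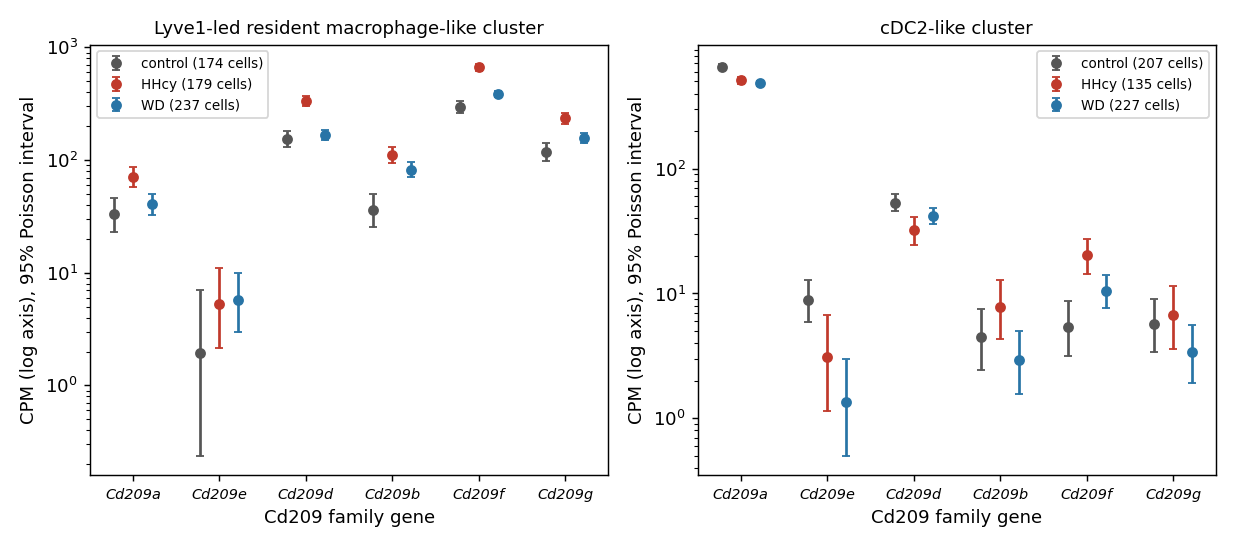
Level of each Cd209 gene in each library, in CPM on a log axis, for the Lyve1-led resident macrophage-like and the cDC2-like cluster. Points are single libraries and bars are exact 95% Poisson intervals, which cover counting error only. In the Lyve1-led cluster the library labelled HHcy is highest for Cd209f (663 CPM) and Cd209d (334 CPM), and in the cDC2-like cluster control is highest for Cd209a (658 CPM).

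As log2 ratios, the library labelled HHcy over control was 1.16 for Cd209f (0.97 to 1.35), 1.12 for Cd209d (0.85 to 1.39), 1.63 for Cd209b (1.10 to 2.19), 1.09 for Cd209a (0.51 to 1.70) and 0.99 for Cd209g (0.68 to 1.31). WD over control was 0.38 for Cd209f (0.19 to 0.58), 0.13 for Cd209d (-0.15 to 0.41), 1.18 for Cd209b (0.66 to 1.74), 0.29 for Cd209a (-0.30 to 0.91) and 0.40 for Cd209g (0.10 to 0.72). Both ratios share the control library. Against WD, the library labelled HHcy was higher by 0.78 for Cd209f, 0.99 for Cd209d, 0.44 for Cd209b, 0.80 for Cd209a and 0.59 for Cd209g.

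For the background, all genes with at least 20 UMIs over both libraries in a cluster were compared in the same way. In the Lyve1-led cluster, 4 of the 5 members that reached 20 UMIs were at least 2-fold higher in the library labelled HHcy than in control (Cd209a, Cd209b, Cd209d and Cd209f), beside 2.14% of 8211 genes. None of the 5 was 2-fold lower, beside 2.33% of genes. In WD, 1 of 5 was 2-fold higher (Cd209b), beside 2.47% of 8782 genes, and 0 of 5 were 2-fold lower, beside 2.33%. Cd209e was left out of these counts. The members were selected on these contrasts, so nothing is read from the counts. The median log2 ratio over all genes was -0.04 in the first contrast and -0.05 in the second.

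Other measures of the same cells also differed between the libraries. Of the 179 cells labelled HHcy, 62 (34.6%) held 10 or more Apoe UMIs, with Apoe at 8059 CPM against 137 CPM in the other 117. Without them, in the library labelled HHcy Cd209f stood at 589 CPM, Cd209d at 329 CPM, Cd209b at 112 CPM, Cd209a at 66.7 CPM and Cd209g at 189 CPM, where the log2 ratio of Cd209g to control was 0.68 (0.33 to 1.03) and no longer 0.99. That of Cd209f was then 0.99 (0.78 to 1.20), just under 2-fold, and that of Cd209a 1.00 (0.36 to 1.66). The share of all genes past 2-fold is not given without these cells, so no count of members is made. Markers of some other lineages were also higher there: 8 of 10 B cell, 8 of 10 T cell and 10 of 12 neutrophil markers stood above control. Their summed levels were 127 against 96.9 CPM, 40.4 against 20.6 CPM and 590.2 against 299.6 CPM. In WD, 1, 3 and 8 of these markers stood above control, with summed levels of 52.1, 20.1 and 322 CPM. None of the B cell markers was at 0 in any library, 1 T cell and 2 neutrophil markers were at 0 in control, and 1 of each in WD. Other lists did not all go this way. In the library labelled HHcy, 2 of 8 NK cell, 2 of 6 fibroblast, 3 of 8 plasmacytoid dendritic cell and 5 of 7 plasma cell markers stood above control. In WD these counts were 6, 4, 4 and 3. The part of these markers in the ratios was not tested.

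Values of genes that define the cluster were as follows. Lyve1 was at 1358, 1308 and 1189 CPM, with log2 ratios to control of -0.05 (labelled HHcy) and -0.19 (WD). Among the 20 genes of the resident macrophage list, 0 were past 2-fold in either direction in either contrast. Of all genes, 2.14% were higher and 2.33% lower in the library labelled HHcy, and 2.47% and 2.33% in WD. The medians of the list were 0.16 and 0.01 (-0.04 and -0.05 over all genes). Nothing is read from these counts. Folr2, a folate receptor, stood at 1017, 1656 and 1561 CPM (0.70 in the library labelled HHcy and 0.62 in WD over control). Timd4, a phosphatidylserine receptor of self-maintained macrophages, was at 108, 167 and 162 CPM (0.63 and 0.59), and the chemokine gene Ccl24 at 322, 528 and 329 CPM (0.71 in the library labelled HHcy). Of the other largest ratios in the list, Fcna was at 0.41 in the library labelled HHcy, and Cbr2 at 0.45 and Pf4 at -0.31 in WD.

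**Figure D3:**
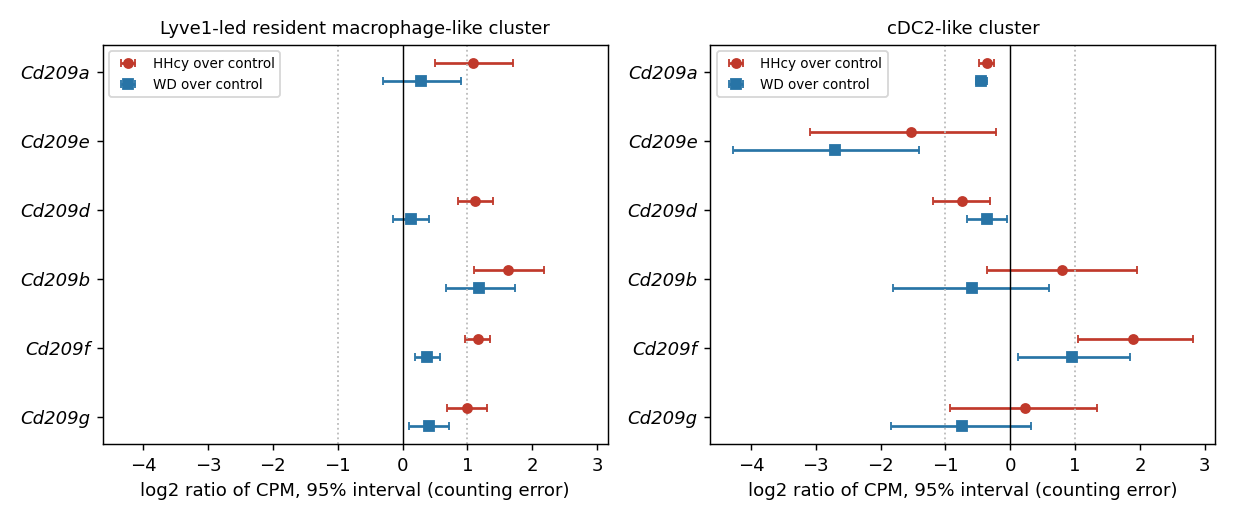
Log2 ratios to control of each Cd209 gene with at least 20 UMIs, for the library labelled HHcy and for WD, in the Lyve1-led and the cDC2-like cluster. Points are ratios of CPM, bars are exact 95% intervals for counting error, the line at 0 marks no difference and the dotted lines mark a 2-fold difference. In the Lyve1-led cluster the 5 ratios of the library labelled HHcy lie between 0.99 and 1.63, and in the cDC2-like cluster Cd209a lies at -0.36 and -0.44.

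Within the Lyve1-led cluster the members shared cells. Of 590 cells, 313 (53.1%) held a UMI of at least 1 member and 97 (16.4%) of at least 4. The share with at least 4 was 8.05% in control, 16.9% in WD and 24.0% in the library labelled HHcy. Without Apoe-high cells the last of these shares was 23.9%. Depth was not set equal for these shares, and median totals were 5119.5 UMIs in control, 8221 in WD and 6838 in the library labelled HHcy. Only 2 cells, both WD, held all 6. The 248 cells with Cd209f included 187 with Cd209g (75.4%), against 7.9% of the cells without Cd209f. At 1000 UMIs a cell, the shares were 29.1% and 5.5%, and without Apoe-high cells the first was 74.5%. Cells with and without Cd209f had median totals of 7153 and 6325 UMIs.

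With depth not set equal, Cd209g was found among Cd209f cells at 63.3% in control, 80.0% in WD and 78.5% in the library labelled HHcy. Cd209d joined them: 154 of its 187 cells (82.4%) also held Cd209f, against 23.3% of cells without Cd209d, and 69 (36.9%) held Cd209a, against 6.0%. Cd209b was found with Cd209d in 75 of its 103 cells (72.8%). Of the 17 cells with Cd209e, 16 held Cd209d. With doublets kept, 17 of 18 cells with Cd209e held Cd209d, 17 held Cd209f and 16 held Cd209g. The UMIs lay in part of the cluster: the 10% of cells with most Cd209f held 72.6% of its UMIs in control, 60.6% in WD and 47.9% in the library labelled HHcy. Cells with 10 or more Cd209f UMIs made up 4.60% of the control, 11.4% of the WD and 19.6% of the labelled HHcy cells, also at unequal depth.

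A pair of further clusters held Cd209f and Cd209g at lower levels. In the other resident macrophage-like cluster, led by Cd163 and Ccn1 (300, 192 and 364 cells), Cd209f stood at 37.4 CPM in control, 81.4 CPM in the library labelled HHcy and 39.7 CPM in WD. On the log2 scale it was higher than control by 1.12 (0.63 to 1.62) in the former and by 0.09 (-0.41 to 0.59) in the latter. Cd209g stood at 27.0, 44.0 and 18.7 CPM, with a ratio of 0.71 (0.08 to 1.34) in the library labelled HHcy. Without the 49 Apoe-high of its 192 cells, that library stood at 28.3 CPM for Cd209g, with a ratio of 0.07 (-0.76 to 0.85), and at 57.9 CPM for Cd209f, with a ratio of 0.63 (0.03 to 1.22). The WD level of both genes thus lay within or below the control interval. In the unnamed cluster led by Cd300e and Treml4, named here after its values were seen, with 49, 36 and 170 cells, Cd209f stood at 24.8, 131 and 76.1 CPM. Its ratios to control were 2.40 (1.65 to 3.21) and 1.62 (0.94 to 2.38), on 19 control UMIs, and 1 WD cell held 66 of 225 UMIs. Without the 6 Apoe-high of 36 cells the first of these was 2.65 (1.90 to 3.46). Its leading genes were Cd300e, Treml4, Fpr2 and Folr2, followed by Gas6, Ccl8 and Lyve1. Lyve1 was detected in 50.6% of its cells. Its median total was 15433 UMIs, against 6820 in the Lyve1-led cluster and 6379 in a monocyte-like cluster also led by Cd300e. The doublet rule does not catch barcodes holding more than 1 myeloid cell, and their part in these values was not tested.

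In the cDC2-like cluster (207, 135 and 227 cells with median totals of 14527, 14754 and 17976 UMIs), Cd209a was the member counted in most cells. It gave 2063 UMIs (658 CPM, 629 to 687) in control, 988 UMIs (511 CPM, 479.5 to 544) in the library labelled HHcy and 2126 UMIs (483 CPM, 463 to 504) in WD. Control was highest, and the other two overlapped. A Cd209a UMI was held by 74.4%, 64.4% and 66.5% of the cells, and by 38.2%, 29.1% and 29.5% at 1000 UMIs a cell. Over control, WD stood at -0.44 (-0.53 to -0.36) on the log2 scale and the library labelled HHcy at -0.36 (-0.47 to -0.25), and the second over the first was 0.08 (-0.03 to 0.19). At 1000 UMIs both ratios to control had intervals that include 0, at -0.23 (-0.66 to 0.19) and -0.27 (-0.63 to 0.10). Without Apoe-high cells, 5 of 135, the library labelled HHcy stood at 532 CPM. Markers of other cell types also differed in these cells: of 8 plasmacytoid dendritic cell markers, 8 stood above control in the library labelled HHcy while 7 did in WD, with summed levels of 508, 946 and 687 CPM. Of 10 B cell markers, 8 and 6 were higher (53.9, 87.4 and 53.2 CPM), and of the 20 resident macrophage genes, 9 and 19 (medians of -0.05 and 0.26, with Igf1 at 1.33 in WD). Among the B cell markers none was at 0, and 1 plasmacytoid marker was at 0 in control. In the library labelled HHcy, 6 of 10 T cell, 3 of 8 NK cell, 9 of 12 neutrophil, 4 of 7 plasma cell and 2 of 6 fibroblast markers stood above control. In WD these counts were 6, 4, 3, 3 and 5. The part of these markers in the ratios was not tested.

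The other members in cDC2-like cells rested on few cells. Cd209d stood at 53.5 CPM in control (168 UMIs), 32.1 CPM in the library labelled HHcy (62 UMIs) and 41.8 CPM in WD (184 UMIs). A single cell held 57 of the control and another 58 of the WD UMIs. The log2 value of the library labelled HHcy over control was -0.74 (-1.18 to -0.31), and -0.39 (-0.90 to 0.09) with the top cell of each library left out. Without Apoe-high cells it was -1.12 (-1.62 to -0.63). Without clusters and with doublets included, among cells with Ifitm1 and Napsa, it turned to 1.72 (labelled HHcy) and 0.94 (WD), or 1.27 and 0.82 without the top barcode of each library. Cd209e had 28 UMIs in control (8.92 CPM) and 6 in each of the other libraries (3.10 and 1.36 CPM), with ratios of -1.52 (-3.09 to -0.22) and -2.71 (-4.27 to -1.41). This direction was not kept: thinned to 1000 UMIs the first was 0.63, and without clusters and with doublets included the values were 2.19 and 0.31, or 0.53 (-0.89 to 2.28) and 0.38 (-1.17 to 2.21) without the top barcode of each library. Its control interval, 5.93 to 12.9 CPM, lay above that of WD (0.50 to 2.97) and overlapped that of the library labelled HHcy (1.14 to 6.75). Cd209f had 17, 39 and 46 UMIs (5.42, 20.2 and 10.5 CPM), of which 1 cell held 25 in the library labelled HHcy and another 22 in WD. Without the top cells its ratio in the library labelled HHcy was 0.82 (-0.38 to 2.03) and no longer 1.90 (1.04 to 2.81), so its call as 2-fold higher rests on the top cells. Thinned, its ratios turned to -0.37 and -1.13.

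Of the 6 members in cDC2-like cells, 1 (Cd209f) was at least 2-fold higher in the library labelled HHcy, beside 2.91% of 9256 genes, and 1 (Cd209e) at least 2-fold lower, beside 2.04%. Without Apoe-high cells Cd209d was also past 2-fold lower, a setting for which the share of all genes is not given. In WD, 0 were 2-fold higher, beside 2.93% of 9898 genes, and 1 (Cd209e) was 2-fold lower, beside 1.19%. Nothing is read from these counts. Other markers of the cluster also differed in the library labelled HHcy: Cd7 stood at 111 CPM in control, 259 CPM in the library labelled HHcy and 100.5 CPM in WD, and Ccl17, a chemokine gene of dendritic cells, at 110.3, 34.1 and 148 CPM. Their part in the ratios of Cd209a was not tested.

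Cd209a outside the cDC2-like cluster did not keep the same order of libraries. In the unnamed cluster led by Retnla and Lyz1 (87, 42 and 47 cells), named here after its values were seen, it gave 94 UMIs (114 CPM) in control, 100 UMIs (304 CPM) in the library labelled HHcy and 5 UMIs (13.7 CPM) in WD. In WD its ratio to control was -3.05 (-4.71 to -1.78), and in the library labelled HHcy it was 1.42 (1.00 to 1.84). In a cycling cluster led by Hist1h2ap (60, 40 and 67 cells), Cd209a stood at 122, 209 and 117 CPM, and 1 control cell held 70 of the 173 control UMIs. Plasmacytoid dendritic cell-like cells, 3, 36 and 6 in number, held 6, 17 and 31 Cd209a UMIs and 11, 40 and 32 Cd209d UMIs, but only 1 of Cd209f and 0 of Cd209g.

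Cd209b had its second site in the interferon macrophage-like cluster (70, 38 and 422 cells), and there 4 cells made up the count. The library labelled HHcy gave 496 Cd209b and 134 Cd209d UMIs, against 0 and 0 in control and 3 and 4 in WD. All of the former lay in 4 cells. The first, of 48041 total UMIs, held 262 of Cd209b and 0 of Cd209d. The second, of 33460, held 148 and 63, the third, of 12634, held 86 and 0, and the fourth, of 28559, held 0 and 71. The first 3 of these cells thus held 64.2% of all 773 Cd209b UMIs of the used cells in that library. The remaining 34 cells of the cluster held 0 of either gene, which allows up to 9.81 CPM, and the 70 control cells up to 4.74 CPM.

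These 4 cells were alike in other genes, which were chosen after their values were seen. They held 17 to 195 UMIs of Marco, a scavenger receptor, 45 to 285 of Cd5l, 7 to 19 of Spic, a transcription factor of red pulp macrophages, and 7 to 20 of Siglec1. Lyve1 was at 0 to 2 UMIs, Apoe at 0 to 2, and none of the 4 held a UMI of Cd209a, Cd209f or Cd209g. Cells with a UMI of Marco, Cd5l and Spic together numbered 0 in control, 1 in WD and 5 in the library labelled HHcy. Those 5 held 496 Cd209b and 134 Cd209d UMIs, all of them in the 4 cells above, and the WD cell held 0 of either gene. Among the remaining 34 interferon cluster cells of the library labelled HHcy, 1 cell held 183 Cd5l UMIs with 0 of either gene. No cell type name is given to them.

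**Figure D4:**
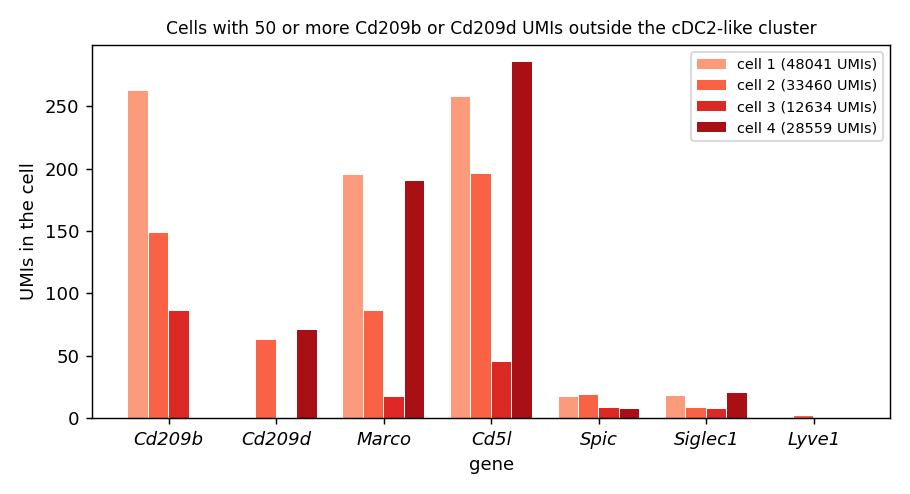
UMIs of Cd209b, Cd209d, Marco, Cd5l, Spic, Siglec1 and Lyve1 (bars, from 0) in each of the 4 cells of the library labelled HHcy with 50 or more UMIs of Cd209b or Cd209d. The first 3 cells hold Cd209b (262, 148 and 86 UMIs), 2 hold Cd209d (63 and 71 UMIs), and all 4 hold Marco and Cd5l.

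In that cluster, both members that reached 20 UMIs (Cd209b and Cd209d) were at least 2-fold higher in the library labelled HHcy, beside 6.19% of 5639 genes, and 0 were 2-fold lower, beside 7.68%. Both counts come from the 4 cells. In WD, 1 of 3 members was 2-fold higher (Cd209f, 54 UMIs against 2 in control), beside 6.63% of 9235 genes, and 1 was 2-fold lower (Cd209g, 20 UMIs or 4.91 CPM against 7 UMIs or 11.1 CPM in control), beside 3.34%. Nothing is read from these counts.

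The pattern of each member over clusters and libraries was compared with that of all genes with at least 100 UMIs, by Pearson's r of log2(CPM + 1) over 40 cluster-by-library points. The points share libraries and depth, so r is a description with no p. They leave out the interferon cluster of the library labelled HHcy, which was too small and held 496 of that library's 773 Cd209b UMIs. Cd209f and Cd209g were close (r = 0.91). Cd209d went with Cd209e (0.79), Cd209b (0.75), Cd209f (0.73) and Cd209g (0.69). Cd209a went with Cd209e (0.71) but little with Cd209f (0.25). With log2(CPM + 10), Cd209d stood at 0.84 with Cd209f and with Cd209g, 0.82 with Cd209b and 0.80 with Cd209e. By Spearman's rho it stood at 0.66 with Cd209e, 0.60 with Cd209b, 0.54 with Cd209f and 0.46 with Cd209g. Outside the family, the genes most like Cd209f were Rcn3 (0.89), Rgs7bp (0.88) and C6 (0.88), and those most like Cd209g were Rcn3 (0.92), Tnfrsf17 (0.90) and C1qtnf1 (0.89). Cd209b was most like Colec12 (0.87), itself a collectin receptor, Dnm1 (0.85) and Ednrb (0.84). Cd209a was most like Ffar2 (0.77), Trappc5 (0.76) and Cd7 (0.75), Cd209d like Gfra2 (0.79), Siglech (0.77) and Tfrc (0.77), and Cd209e like Gfra2 (0.75), Irf4 (0.73) and Arhgef10 (0.70). The names depend on the measure: with Spearman's rho 0 of these 3 genes stayed among the top 3 for Cd209a, Cd209b and Cd209d, 1 for Cd209e and 2 for Cd209f and Cd209g. With log2(CPM + 10), 2 stayed for Cd209a, 1 for Cd209b and Cd209d, 3 for Cd209e and 2 for Cd209f and Cd209g.

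**Figure D5:**
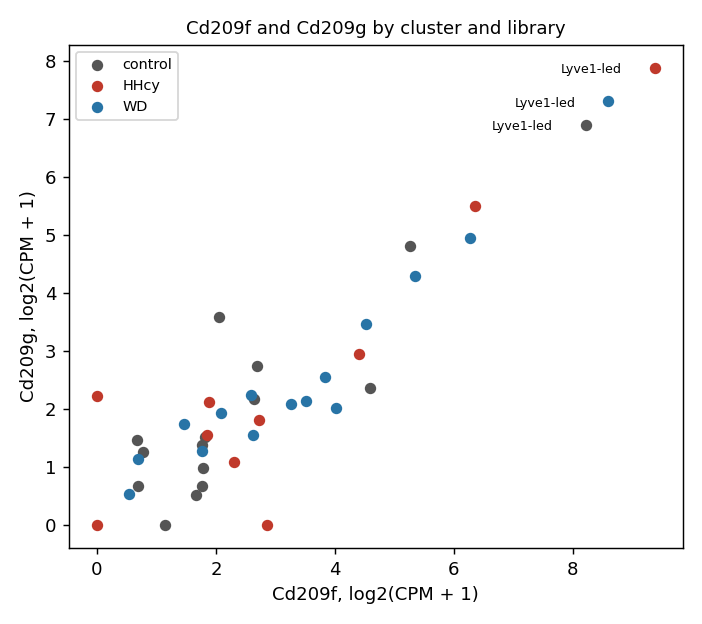
Levels of Cd209f (x axis) and Cd209g (y axis) as log2(CPM + 1) at 40 cluster-by-library points, coloured by library. Points high for one gene are high for the other (Pearson's r = 0.91), and the 3 points of the Lyve1-led cluster lie at the top right.

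Of the 29 other myeloid C-type lectin receptor genes found in the tables, Mrc1 (the mannose receptor, 1890.0 CPM) was also highest in the Lyve1-led cluster. So were Mgl2 (1014 CPM) and Clec10a (731 CPM), galactose-type lectins, and Cd302 (167 CPM) and Colec12 (122 CPM). Mrc1 (1767 CPM) and Mgl2 (808 CPM) were next highest in the other resident macrophage-like cluster. Of the list, 17 could be compared in the Lyve1-led cluster. In the library labelled HHcy 0 of them were past 2-fold in either direction, beside 2.14% of all genes higher and 2.33% lower. The median was 0.15 (-0.04 over all genes). The largest ratios there were 0.87 for Colec12, 0.84 for Clec4e, 0.50 for Cd302 and 0.39 for Clec4b1. In WD, 2 of 17 were 2-fold higher, Clec4d (1.34) and Clec4n (1.11), beside 2.47% of all genes, with a median of 0.24 (-0.05 over all genes), followed by Cd302 (0.66) and Clec4a2 (0.51). In cDC2-like cells, 1 of 22 was 2-fold higher in the library labelled HHcy (Colec12, 1.34) and 2 lower (Asgr2, -3.15, and Klrb1b, -1.17), beside 2.91% and 2.04% of all genes. In WD, 1 of 23 was higher there (Clec1b, 1.85) and 2 lower (Asgr2, -2.20, and Clec4g, -1.32), beside 2.93% and 1.19%. Among genes with at least 100 UMIs, Klrb1b, Mgl2 (-0.96), Clec4n (-0.64) and Clec4b1 (-0.57) had the largest ratios in the former, and Clec5a (0.78), Clec4d (0.69), Klrb1b (-0.66) and Clec4n (0.64) in the latter.

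Of 17 genes that carry lectin receptor signals compared in the Lyve1-led cluster, 0 were 2-fold higher and 1 was lower in each contrast. Beside this, 2.14% (labelled HHcy) and 2.47% (WD) of all genes were higher, and 2.33% were lower in each. The medians of the list were -0.11 and 0.00. The 1 was Card9, an adaptor downstream of lectin receptors, at -1.23 on 11 against 20 UMIs in the library labelled HHcy and -1.27 on 17 against 20 UMIs in WD. Malt1 was at 0.62 and -0.59, Prkcd at -0.57 and -0.59, Ptpn6 at -0.30 in the library labelled HHcy and Rras at 0.87 in WD. In cDC2-like cells none of 16 (labelled HHcy) and 17 (WD) was past 2-fold. Of all genes there, 2.91% and 2.93% were higher and 2.04% and 1.19% lower. Among 7 glycan-bearing partners such as Icam1, Itgam and Itgb2, none was past 2-fold in the Lyve1-led cluster, with medians of -0.11 and -0.40, nor any of 8 in cDC2-like cells. These counts stand beside the same shares of all genes in each cluster, and nothing is read from them. Of the dendritic cell list, 3 of 20 were 2-fold higher in the Lyve1-led cluster of the library labelled HHcy (Ifitm1, 1.17, Kmo, 1.05, and Cd1d1, 1.03, each on 21 to 32 UMIs there) and 1 of 21 in WD (Irf8, 1.04), beside 2.14% and 2.47% of all genes. In cDC2-like cells 1 of 25 was higher and 2 lower in the library labelled HHcy, beside 2.91% and 2.04% of all genes. Cd7 was at 1.22 there, Ccl17 at -1.69, Cd1d1 at -1.35, Klf4 at -0.90 and Zbtb46 at 0.79. In WD none was past 2-fold, beside 2.93% of all genes higher and 1.19% lower.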

How the data were processed

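The 3 deposited matrices hold whole UMI counts per gene and barcode, made by the authors. The submitters' processing notes name Cell Ranger 2.2.0 and mm10, while the file headers name Cell Ranger 4.0.0. The values are whole numbers, so they were read as counts with no normalization applied. The members and gene lists were chosen with earlier results of these data known.

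Barcodes with at least 200 genes and at most 10% mitochondrial UMIs were kept, 6038, 8155 and 6710 in control, HHcy and WD. Those with markers of 2 or more lineages were left out. Cells were clustered (2000 variable genes without Cd209 genes, 30 components, 20 neighbours, Leiden resolution 1, leidenalg 0.10.2, scikit-learn 1.9.0) and named from marker lists. Counts were summed per library and cluster and given as CPM with exact Poisson intervals, shares with Clopper-Pearson intervals and ratios with conditional binomial intervals, all at 95% and for counting error only (scipy 1.17.1). A count of 0 allows 3 counts. With 1 library a group there is no test between groups. For equal depth, cells were thinned to 1000 UMIs and shallower cells left out. Genes compared in a contrast had at least 20 UMIs over both libraries. Named genes are the members, the 3 genes most like each, and the 4 largest ratios of each list among genes with at least 100 UMIs, of which 1 gene of the signalling list is not reported here. Genes past 2-fold in a list, the Marco, Cd5l and Spic genes, the motifs and the unnamed clusters were named after their values were seen. Promoters are RefSeq's (GRCm38.p6). Median depth of used cells was 7604.5, 6773 and 8196 UMIs. The scripts were tested on simulated data.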

Additional observations from a re-analysis of the deposited data

Results flagged for a closer look

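For a pair of members, the library labelled HHcy stood above control in 1 cluster and under it in another. Cd209a stood at 1.09 in the Lyve1-led cluster and -0.36 in the cDC2-like cluster, a gap of 1.45 on the log2 scale. Cd209d stood at 1.12 and -0.74, a gap of 1.86. The opposite directions did not hold in every setting. Without clusters and with doublets included, Cd209a in Lyve1-positive barcodes was at -0.57. Cd209d was at 1.72 in barcodes with Ifitm1 and Napsa, a set not limited to dendritic cells. Without the top cell of each library, Cd209d in cDC2-like cells was at -0.39 (-0.90 to 0.09). With 1 library a group, the difference was not tested.

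Barcodes left out as doublets in the library labelled HHcy held high counts of single members, in barcodes that the main comparisons leave out and the setting without clusters includes. A single barcode of 83820 total UMIs held 288 Cd209d UMIs and 64 of the library's 112 Cd209e UMIs. Another, of 40834 total UMIs, held 168 Cd209f UMIs.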

How the results depend on the processing

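No paired analysis was possible because each group has 1 library. Ratios are log2 to control. In the Lyve1-led cluster, the ratio of the library labelled HHcy stayed above 0 in 15 alternatives, at 1.20 to 2.08 for Cd209b, 0.77 to 1.55 for Cd209d, 0.96 to 1.56 for Cd209f and 0.68 to 1.49 for Cd209g. With mitochondrial UMIs up to 20%, Cd209d was at 0.78 and Cd209f at 0.96. With both resident clusters summed they were at 1.55 and 1.56. Cd209d was at 0.77 with each cell weighing the same, Cd209f at 1.45 with cells chosen by own markers, and Cd209g at 0.68 without Apoe-high cells. Thinned to 1000 UMIs, Cd209g was at 1.49 and Cd209b in WD at 2.18. In cDC2-like cells Cd209a was at -0.22 (labelled HHcy) and -0.23 (WD) with own markers, at -0.23 and -0.27 thinned, and at -0.52 (labelled HHcy) with equal weights. Thinned, Cd209g was found in 29.1% of Cd209f cells and Cd209f in 55.4% of Cd209d cells. The cause was not tested.

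Without clusters and with doublets included, an alternative chosen after seeing the data, Cd209b in WD was at 0.50 in Lyve1-positive barcodes. In them Cd209a in the library labelled HHcy reversed to -0.57. The set taken for the cDC2-like cluster was all barcodes with Ifitm1 and Napsa. It is not limited to dendritic cells, since Ifitm1 was also a leading gene of neutrophil-like cells. In that set Cd209a in the library labelled HHcy was at -1.40. There Cd209d reversed to 1.72 and 0.94, and Cd209e to 2.19 and 0.31. A single doublet barcode held 288 Cd209d and 64 Cd209e UMIs. Without the top barcode of each library as well, Cd209d was at 1.27 and 0.82, and Cd209e at 0.53 and 0.38 with intervals that include 0. Cd209a was then at -0.54 in Lyve1-positive barcodes and -1.42 in those with Ifitm1 and Napsa, and Cd209b in WD at 0.44. Thinned, Cd209e in cDC2-like cells reversed to 0.63 in the library labelled HHcy, and Cd209f to -0.37 and -1.13. With no UMI minimum, genes past 2-fold higher and lower numbered 2118 and 1632 (labelled HHcy) and 2241 and 1886 (WD) in the Lyve1-led cluster against 176, 191, 217 and 205. They numbered 1837, 1855, 2392 and 1354 in cDC2-like cells against 269, 189, 290 and 118, and 1920, 3019, 4044 and 1466 in the interferon cluster against 349, 433, 612 and 308. Fewer UMIs a gene come with that setting. Allowing Cd209 genes in the clustering left all 18 ratios in those clusters within their counting error.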

Other observations

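Cd209c, the gene between Cd209b and Cd209f, is no member and had 185, 183 and 108 UMIs over all barcodes of control, the library labelled HHcy and WD. In cDC2-like cells it had 38, 9 and 19 UMIs, or 12.1 CPM (8.57 to 16.6), 4.65 CPM (2.13 to 8.83) and 4.32 CPM (2.60 to 6.74).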
